A study of Mus musculus with 30 samples.

Results

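Mitochondrial β-oxidation shortens fatty acids inside the mitochondrion, and in liver much of the acetyl-CoA it yields is made into ketone bodies for other organs. The genes described here encode the acyl-CoA synthetases that activate fatty acids, the acyl-CoA dehydrogenases and the hydratase, hydroxyacyl-CoA dehydrogenase and thiolase steps that follow them, the auxiliary enzymes for unsaturated chains, the flavoproteins that carry away the electrons, and enzymes of ketone body and propionyl-CoA metabolism. They were chosen by name, as a list of 31 genes without the carnitine shuttle. Of these, 30 were named by a probe set that passed the filter on weak signals, among 12156 named genes that did so, and the remaining gene, Acsl1, is not analysed here. Many genes of the pathway are known targets of PPARα, the nuclear receptor that binds fatty acids and whose gene is disrupted in PPARα-null mice. The pathway is most active in hepatocytes during fasting.

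Liver RNA came from male mice of 6 to 9 months of age dosed daily by gavage with the potassium salt of PFOS, a perfluorinated sulfonate surfactant, or with its Tween 20 vehicle alone (0 mg/kg), for 7 days. Wild-type (WT) mice were of strain 129S1/SvlmJ and PPARα-null (Null) mice of strain 129S4/SvJae-Pparatm1Gonz/J, a germline disruption of the receptor gene. Each genotype received 0, 3 or 10 mg/kg, so that 6 groups of 5 individual mice, with an Affymetrix array for each mouse, gave 30 arrays. The genotypes also differ in 129 substrain, and a difference of genotype cannot be told apart from one of substrain. The values are log2 expression values after Robust Multichip Average (RMA) normalization, a change is a difference of group means on this log2 scale, and a gene counts as called where limma, adjusted over all kept probe sets, gave an adjusted p under 0.05. Arrays of whole liver cannot tell fewer cells of a type apart from less RNA per cell.

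The 10 hepatocyte markers were all detected, with a mean log2 value of 12.72 to 13.15 in every array. Ppara itself gave signal in Null mice, between 8.78 and 9.81, against 9.93 to 10.77 in the treated WT arrays. Replicates 4 and 5 of the arrays labelled WT 0 mg/kg stood apart from their group. Their Ppara values were 8.66 and 8.74 against 10.33 to 10.62 in replicates 1 to 3, while Cyp2b10, the drug-metabolizing P450 that responds to the receptor CAR, stood at 12.80 to 12.93 against 7.81 to 8.20. These arrays go against their label in both genes, so the counts and medians of the WT dose comparisons, the calls of the differences in response and the control levels are also given without them. The Ppara and Cyp2b10 values are means over 3 probe sets each. Cyp2b10 was at 6.78 to 9.06 in Null controls. At 10 mg/kg it was at 11.90 to 13.185 in Null mice and 12.20 to 12.94 in WT mice. Cyp4a14, a gene known to respond to PPARα, has 1 probe set. It did not set WT control replicates 4 and 5 apart (8.64 and 9.76, against 8.68 to 11.11 in replicates 1 to 3). In Null controls Cyp4a14 was at 12.20 in replicate 4 and at 5.33 to 9.19 in the other replicates.

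In WT mice many genes of the pathway rose with PFOS. At 3 mg/kg, 5 of the 30 genes were called higher (Acadl, Hadha, Hadhb, Eci1 and Decr1) and 0 lower, against 0.239% higher and 0.00823% lower of all genes tested. At an unadjusted p under 0.05, limma gave 18 of the 30. The share of all genes at that unadjusted p is not given, here or below, so an excess cannot be read from these counts. The median change of the 30 genes was 0.25, against -0.0026 for all genes, and 0.15 without WT control replicates 4 and 5. At 10 mg/kg, 18 were called higher and 1 lower, against 7.53% and 5.54% of all genes, and the median change was 0.39. Members of every role rose at the higher dose except propionyl-CoA carboxylase, whose 2 subunits were not called. For the ketone body enzymes this was Acat1 alone, which was not called without WT control replicates 4 and 5. Of the 19 calls, 10 held in all 15 runs that each left out 1 array (Acsl3, Acadl, Acadm, Acad10, Acad11, Acad12, Hadha, Hadhb, Eci1 and Decr1). The calls of Acadl, Eci1 and Decr1 at 3 mg/kg held in all 15. From 3 to 10 mg/kg, 4 genes were called higher and 2 lower, against 3.77% and 2.91% of all genes.

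In Null mice, shares of these genes near those of all genes were called. At 3 mg/kg, 1 of 30 was called higher (Acadl) and 0 lower, against 2.02% higher and 3.13% lower of all genes, with 7 at an unadjusted p under 0.05 in limma. At 10 mg/kg, Acadl was called higher and Bdh1 lower, 1 gene in each direction, against 4.14% and 4.96% of all genes, with 9 at an unadjusted p under 0.05. The median changes of the 30 genes were 0.03 and 0.07.

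**Figure D1:**
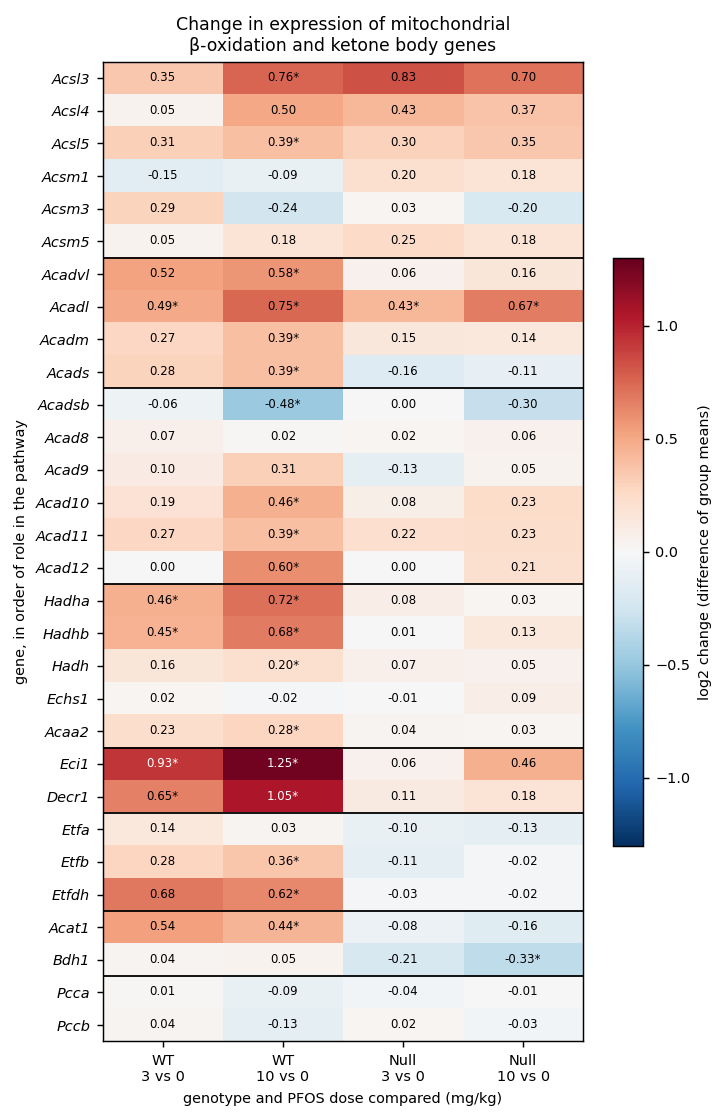
Log2 change of the 30 measured genes (rows, in order of role, with lines between roles) in WT and Null mice at 3 and 10 mg/kg PFOS against 0 mg/kg (columns). Red cells are higher and blue cells lower in treated mice, the printed value is the change, and an asterisk marks an adjusted p under 0.05 in limma. The WT column at 10 mg/kg holds 18 called rises and the Null column at that dose holds 1, in Acadl.

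The auxiliary enzymes for unsaturated fatty acids changed most in WT mice. Eci1 encodes the enoyl-CoA isomerase that moves a double bond into the position the spiral can use. In WT mice its log2 values were 11.36, 11.67, 11.48, 11.20 and 11.48 at 0 mg/kg, 12.45, 12.28, 12.40, 12.38 and 12.32 at 3 mg/kg, and 12.70, 12.86, 12.52, 12.60 and 12.77 at 10 mg/kg. The 3 dose groups did not overlap, and each dose lay above the one before. The change was 0.93 ± 0.08 (SE) at 3 mg/kg (adjusted p = 6.29e-05) and 1.25 ± 0.08 at 10 mg/kg (adjusted p = 3.17e-07), a 2.38-fold rise. In Null mice Eci1 was at 10.47, 10.73, 10.56, 10.91 and 10.54 at 0 mg/kg, 10.60, 10.69, 11.09, 10.33 and 10.79 at 3 mg/kg, and 11.30, 11.46, 10.76, 10.62 and 11.39 at 10 mg/kg. Replicates 1, 2 and 5 at 10 mg/kg lay above every Null control and replicates 3 and 4 among them, and the change of 0.46 ± 0.17 was not called (adjusted p = 0.108). Every treated Null array lay below every treated WT array.

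Decr1, the dienoyl-CoA reductase that removes a double bond from polyunsaturated chains, followed the same order. WT values were 11.42, 11.61, 11.37, 11.59 and 11.76 at 0 mg/kg, 12.21, 12.10, 12.23, 12.23 and 12.23 at 3 mg/kg, and 12.56, 12.69, 12.57, 12.56 and 12.61 at 10 mg/kg. Again the 3 groups did not overlap, and the arrays within each treated group lay close together (SD 0.0546 in both). Decr1 rose by 0.65 ± 0.07 at the lower dose and by 1.05 ± 0.07 at the higher, a 2.07-fold rise (adjusted p = 3.17e-07), with a further 0.40 ± 0.07 from 3 to 10 mg/kg. Null values were 11.24, 11.31, 11.24, 11.49 and 11.31 at 0 mg/kg, 11.41, 11.45, 11.47, 11.32 and 11.52 at 3 mg/kg, and 11.46, 11.69, 11.37, 11.28 and 11.68 at 10 mg/kg. The Null groups overlapped, and the change at 10 mg/kg was 0.18 ± 0.09 (adjusted p = 0.24). The other Decr1 probe set changed by 1.28 in WT mice at 10 mg/kg.

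**Figure D2:**
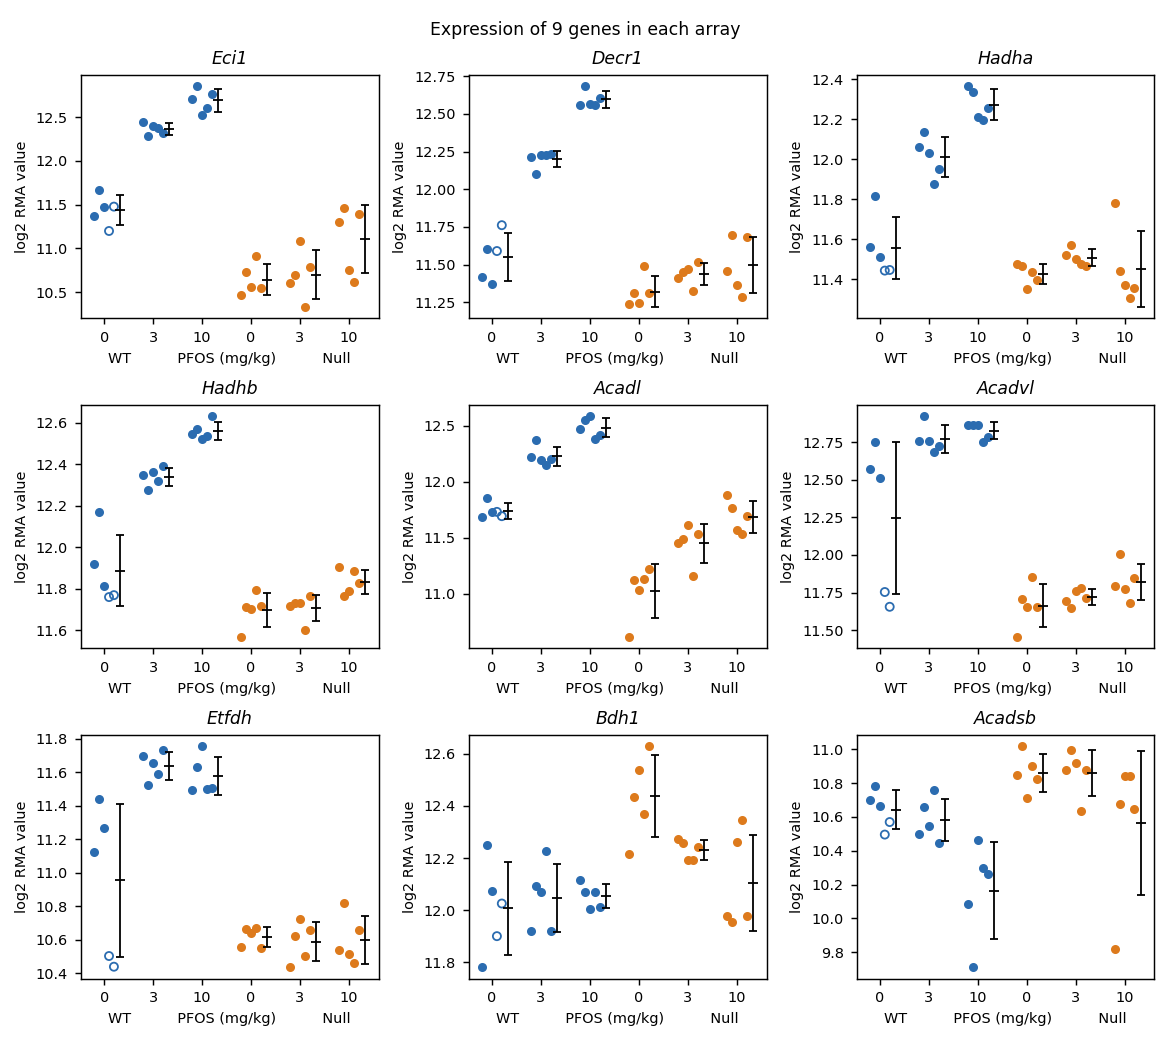
Log2 RMA value (vertical axis) of 9 genes in each array by PFOS dose (mg/kg, horizontal axis), WT in blue and Null in orange, with 1 point per mouse and the group mean ± SD (n = 5) in black. Open circles are WT 0 mg/kg replicates 4 and 5. The WT groups rise without overlap in Eci1 and Decr1, Acadl rises in both genotypes, and the open circles lie low in Acadvl and Etfdh.

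Hadha and Hadhb encode the α and β subunits of the mitochondrial trifunctional protein, which carries out the last 3 steps of the spiral on long chains. The genes lie head to head on mouse chromosome 5, on opposite strands. The stretch between their annotated starts is shown because the pair shares it and changed together, and the start region of Eci1 because it changed most. Both are RefSeq sequence of build GRCm38.p6, given 5′ to 3′ on the strand named, and the mice are of 129 strains, whose sequence may differ. A search for pairs of the hexamer AGGTCA separated by 1 base, the arrangement PPARα is known to bind with its partner RXR, on both strands with at most 2 mismatches found none in either stretch, and neither holds an exact AGGTCA.
Hadha and Hadhb, chr5:30154981-30155252, plus strand: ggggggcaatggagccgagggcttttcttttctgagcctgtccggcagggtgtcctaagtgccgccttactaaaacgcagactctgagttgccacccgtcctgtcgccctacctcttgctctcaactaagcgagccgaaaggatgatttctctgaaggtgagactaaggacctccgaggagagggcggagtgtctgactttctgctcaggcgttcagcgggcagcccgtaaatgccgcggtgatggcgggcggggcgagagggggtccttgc
Eci1, chr17:24426433-24426682, plus strand: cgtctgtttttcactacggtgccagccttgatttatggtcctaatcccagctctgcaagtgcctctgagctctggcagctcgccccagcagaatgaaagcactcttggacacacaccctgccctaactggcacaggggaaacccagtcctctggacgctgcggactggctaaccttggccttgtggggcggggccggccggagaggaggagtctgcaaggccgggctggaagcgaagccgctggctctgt

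Windows of 250 bases before the annotated start were listed for 26 of the 30 measured genes (28 windows). A paired match was found in 2 of these windows, 7.14%, against 3.24% of the 32851 windows of all genes. An exact AGGTCA was found in 5, 17.9%, against 14% of all windows. The paired matches lay in Etfa, the α subunit of the electron transfer flavoprotein, and Echs1, the short-chain enoyl-CoA hydratase. They are shown with the match in capitals because neither gene was called for dose in either genotype.
Etfa, chr9:55512244-55512493, minus strand: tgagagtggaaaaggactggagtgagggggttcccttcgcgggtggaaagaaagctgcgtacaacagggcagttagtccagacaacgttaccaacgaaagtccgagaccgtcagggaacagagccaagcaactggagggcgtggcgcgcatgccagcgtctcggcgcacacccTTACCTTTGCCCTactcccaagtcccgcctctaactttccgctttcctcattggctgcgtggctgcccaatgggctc
Echs1, chr7:140116422-140116671, minus strand: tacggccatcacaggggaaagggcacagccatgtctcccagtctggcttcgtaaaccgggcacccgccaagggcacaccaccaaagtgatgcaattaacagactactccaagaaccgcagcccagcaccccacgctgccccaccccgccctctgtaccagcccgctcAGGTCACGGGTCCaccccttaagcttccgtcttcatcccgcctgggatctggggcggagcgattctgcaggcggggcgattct
A match is a run of letters and was not tested as a site.

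The WT values of Hadha were 11.56, 11.82, 11.51, 11.44 and 11.45 at 0 mg/kg, 12.06, 12.14, 12.03, 11.88 and 11.95 at 3 mg/kg, and 12.37, 12.34, 12.21, 12.19 and 12.26 at 10 mg/kg. Those of Hadhb were 11.92, 12.17, 11.81, 11.76 and 11.77, then 12.35, 12.28, 12.36, 12.32 and 12.39, then 12.54, 12.57, 12.52, 12.54 and 12.63. In both genes every array at 3 mg/kg lay above every control, and every array at 10 mg/kg above every array at 3 mg/kg. At 10 mg/kg Hadha changed by 0.72 ± 0.08 and Hadhb by 0.68 ± 0.07 (adjusted p = 3.34e-05 for each), and the other kept Hadhb probe sets by 0.66 and 0.77. In Null mice Hadha stood at 11.47, 11.47, 11.35, 11.44 and 11.40 in controls, and at 11.78, 11.44, 11.37, 11.30 and 11.36 at 10 mg/kg. Replicate 1 alone was high there, and the change was 0.03 ± 0.08, with a 95% interval from -0.14 to 0.20. Hadhb changed by 0.13 ± 0.06 in Null mice at that dose (adjusted p = 0.217). That value is from 1 of its 3 kept probe sets, and the Null values of the others are not given. The paper lists this gene as lower in treated Null mice at both doses, so the direction of its Null change is not settled here.

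The remaining enzymes of these steps changed little. Hadh, the hydroxyacyl-CoA dehydrogenase for shorter chains, rose by 0.20 ± 0.05 in WT mice at 10 mg/kg (adjusted p = 0.0235). Acaa2, the mitochondrial 3-ketoacyl-CoA thiolase, rose by 0.28 ± 0.07 (adjusted p = 0.0275), and its other probe sets by 0.26 and 0.27. Echs1 changed by -0.02 ± 0.05 in WT and by 0.09 ± 0.06 in Null mice, neither called. In Null mice Hadh changed by 0.05 and Acaa2 by 0.03, neither called.

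All 4 straight-chain acyl-CoA dehydrogenases, which open each turn of the spiral on chains of different length, were called higher in WT mice at 10 mg/kg. Acadl, which acts on long chains, was the one called at both doses in both genotypes. Its WT values were 11.68, 11.86, 11.73, 11.73 and 11.69 at 0 mg/kg, 12.22, 12.37, 12.20, 12.15 and 12.21 at 3 mg/kg, and 12.48, 12.56, 12.59, 12.39 and 12.42 at 10 mg/kg. Its Null values were 10.61, 11.13, 11.04, 11.13 and 11.22, then 11.45, 11.49, 11.61, 11.16 and 11.53, then 11.88, 11.77, 11.57, 11.53 and 11.69. The WT groups did not overlap. In Null mice the group at 10 mg/kg lay above all controls, while replicate 4 at 3 mg/kg lay below 1 control. The change was 0.49 ± 0.06 in WT and 0.43 ± 0.11 in Null mice at 3 mg/kg, and 0.75 ± 0.06 and 0.67 ± 0.11 at 10 mg/kg. The Null call at 3 mg/kg was close to the threshold (adjusted p = 0.0488) and was lost in 12 of 15 runs that each left out 1 array, while that at 10 mg/kg (adjusted p = 0.0036) held in all 15.

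Acadvl, the dehydrogenase for very long chains, rose by 0.58 ± 0.17 in WT mice at 10 mg/kg (adjusted p = 0.0418), a value that rests on the arrays that stand apart. Its WT control values were 12.57, 12.75 and 12.51 in replicates 1 to 3 and 11.75 and 11.66 in replicates 4 and 5, against 12.87, 12.87, 12.86, 12.75 and 12.79 at 10 mg/kg. Replicates 4 and 5 lay within the range of the Null controls, 11.45 to 11.85, and within that of Null mice at 3 mg/kg, 11.65 to 11.78. Without these 2 arrays the change was 0.22 ± 0.08 and was not called (adjusted p = 0.0514). Acads, the short-chain enzyme, rose by 0.39 ± 0.10, and without these arrays changed by 0.21 (adjusted p = 0.0576). Acadm, the medium-chain enzyme, rose by 0.39 ± 0.07 and by 0.47 without them. Null changes at 10 mg/kg were 0.16 for Acadvl, 0.14 for Acadm and -0.11 for Acads, none called.

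Of the 6 other members of the dehydrogenase family, 3 were higher and 1 lower in WT mice at 10 mg/kg. Acad10, Acad11 and Acad12 rose by 0.46 ± 0.10, 0.39 ± 0.09 and 0.60 ± 0.11. Acad12 was at 6.83, 6.67, 6.73, 6.94 and 7.03 at 0 mg/kg, 6.77, 6.82, 6.91, 6.92 and 6.77 at 3 mg/kg, and 7.75, 7.50, 7.14, 7.20 and 7.62 at 10 mg/kg. The 2 lower groups overlapped throughout and only the 10 mg/kg group stood above them. A lower probe set of Acad10 (mean log2 value 7.97) changed by -0.02, so its probe sets disagree. Acad8, which acts in valine breakdown, changed by 0.02, and Acad9, which is also an assembly factor of respiratory complex I, by 0.31 (adjusted p = 0.0532).

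Acadsb, which acts on short branched chains from isoleucine, was the gene called lower. WT values were 10.70, 10.78, 10.66, 10.50 and 10.57 at 0 mg/kg, 10.50, 10.66, 10.55, 10.76 and 10.45 at 3 mg/kg, and 10.08, 9.71, 10.46, 10.30 and 10.26 at 10 mg/kg. The highest array at 10 mg/kg lay below every control, and the change was -0.48 ± 0.12 (adjusted p = 0.0184). Null values at 10 mg/kg were 9.82, 10.68, 10.84, 10.84 and 10.65 against 10.71 to 11.02 in controls, with replicate 1 far below the rest and a change of -0.30 ± 0.15 that was not called (adjusted p = 0.27). Its probe set is of a kind that may bind related transcripts.

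Among the electron carriers, Etfb, the β subunit of the electron transfer flavoprotein, and Etfdh, which passes its electrons to ubiquinone, were called higher in WT mice at 10 mg/kg, and Etfa was not (0.03 ± 0.06). Etfdh was at 11.13, 11.44, 11.27, 10.50 and 10.44 in WT controls, 11.70, 11.52, 11.66, 11.59 and 11.73 at 3 mg/kg, and 11.50, 11.63, 11.76, 11.50 and 11.50 at 10 mg/kg. Both treated groups lay above all controls and overlapped each other, and control replicates 4 and 5 were again the low ones. The change at 10 mg/kg was 0.62 ± 0.16 (adjusted p = 0.0233), and without those arrays it was 0.30 ± 0.09 (adjusted p = 0.0244). That of Etfb was 0.36 ± 0.09 (adjusted p = 0.0223) and without them 0.19 ± 0.06 (adjusted p = 0.0433). In Null mice Etfdh lay between 10.44 and 10.82 in all 15 arrays, with a change of -0.02 ± 0.08 at 10 mg/kg and a 95% interval from -0.18 to 0.15.

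Of the acyl-CoA synthetases, Acsl3 and Acsl5, which activate long-chain fatty acids, were called higher in WT mice at 10 mg/kg. Acsl3 was at 7.24, 7.32, 7.49, 7.47 and 7.31 in WT controls and at 8.03, 7.70, 8.34, 8.26 and 8.27 at 10 mg/kg, a change of 0.76 ± 0.11 (adjusted p = 0.000894) with no overlap. In Null mice it was at 6.48, 6.71, 6.95, 6.78 and 6.81 at 0 mg/kg, 7.37, 7.54, 7.40, 8.16 and 7.40 at 3 mg/kg, and 6.37, 7.88, 7.65, 8.10 and 7.25 at 10 mg/kg. All Null arrays at 3 mg/kg lay above the controls, while at 10 mg/kg replicate 1 lay below them all. The Null changes of 0.83 ± 0.25 and 0.70 ± 0.25 were not called (adjusted p = 0.0754 and 0.101). Acsl5 rose by 0.39 ± 0.09 in WT mice (adjusted p = 0.0188) and changed by 0.35 ± 0.11 in Null mice (adjusted p = 0.0707).

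Acsl4, which prefers arachidonic acid, changed by 0.50 ± 0.16 in WT mice at 10 mg/kg and was not called (adjusted p = 0.0522). Its values in control replicates 4 and 5 were 7.61 and 7.71 against 6.95 to 7.10 in the other controls, and without them the change was 0.75 ± 0.14 (adjusted p = 0.00198). None of the medium-chain synthetases was called higher in WT mice. Acsm3 stood at 10.17, 10.41, 10.18, 10.15 and 9.98 in the group given 3 mg/kg, and at 9.66, 9.35, 10.03, 9.55 and 9.61 at 10 mg/kg, a change of -0.54 ± 0.14 (adjusted p = 0.0364) with 1 array inside the range of the lower dose. That call was lost in 8 of 15 runs that each left out 1 array. Against 0 mg/kg Acsm3 changed by -0.24 at 10 mg/kg, and without the arrays that stand apart by -0.43 (adjusted p = 0.0298). Acsm1 and Acsm5 changed by -0.09 and 0.18 at 10 mg/kg, neither called.

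Of the ketone body enzymes, Acat1 was called in WT mice and Bdh1 in Null mice. Acat1 has 3 kept probe sets and Bdh1 has 2, and the values are those of 1 probe set for each gene. Acat1, the mitochondrial acetoacetyl-CoA thiolase, was at 9.74, 10.28, 9.89, 9.41 and 9.76 in WT controls and at 10.14, 10.28, 10.19, 10.31 and 10.37 at 10 mg/kg. The groups overlapped through control replicate 2, and the change was 0.44 ± 0.12 (adjusted p = 0.0277), or 0.29 ± 0.11 without control replicates 4 and 5 (adjusted p = 0.0631). In Null mice it changed by -0.16 ± 0.11 and was not called. Bdh1, which interconverts acetoacetate and β-hydroxybutyrate, changed by 0.05 ± 0.08 in WT mice. In Null mice it stood at 12.21, 12.44, 12.54, 12.37 and 12.63 at 0 mg/kg, 12.27, 12.26, 12.19, 12.19 and 12.24 at 3 mg/kg, and 11.98, 11.96, 12.26, 12.35 and 11.98 at 10 mg/kg. The groups overlapped, and the change of -0.33 ± 0.09 at 10 mg/kg (adjusted p = 0.0387) was lost in 9 of 15 runs that each left out 1 array. Pcca and Pccb, the subunits of propionyl-CoA carboxylase, which handles the short remainder of odd chains, changed by -0.09 and -0.13 in WT mice and by -0.01 and -0.03 in Null mice at 10 mg/kg, none called.

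The difference in response between genotypes was tested directly in a fit of all 30 arrays, as the Null change minus the WT change. At 3 mg/kg, 3 genes had a smaller change in Null mice (Hadhb, Eci1 and Decr1) and 0 a larger one, against 0.995% and 0.239% of all genes, with 12 of the 30 at an unadjusted p under 0.05 in limma. At 10 mg/kg, 6 genes had a smaller change in Null mice and 0 a larger one, against 3.03% and 0.749% of all genes, with 15 at an unadjusted p under 0.05. The differences at 10 mg/kg were -0.87 ± 0.11 for Decr1 (adjusted p = 1.88e-05), -0.69 ± 0.11 for Hadha, -0.54 ± 0.09 for Hadhb, -0.79 ± 0.20 for Eci1, -0.64 ± 0.18 for Etfdh and -0.60 ± 0.17 for Acat1. For Acadl the difference was -0.08 ± 0.13, with a 95% interval from -0.35 to 0.19 (adjusted p = 0.825). For Acsl3 it was -0.05 with an interval from -0.65 to 0.54. The calls of Decr1, Hadha and Hadhb at 10 mg/kg held in all 30 runs that each left out 1 array, while those of Acat1 and Etfdh were lost in 24 and 23 of them and that of Eci1 in 6. The calls of Decr1, Hadhb and Eci1 at 3 mg/kg were lost in 2, 3 and 12 of the 30 runs. Without control replicates 4 and 5, Decr1, Hadha and Hadhb were called at 10 mg/kg and Decr1 at 3 mg/kg, against 3.66% and 0.197% of all genes with a smaller change in Null mice. The values were then -0.95, -0.62 and -0.46 at 10 mg/kg and -0.62 at 3 mg/kg.

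**Figure D3:**
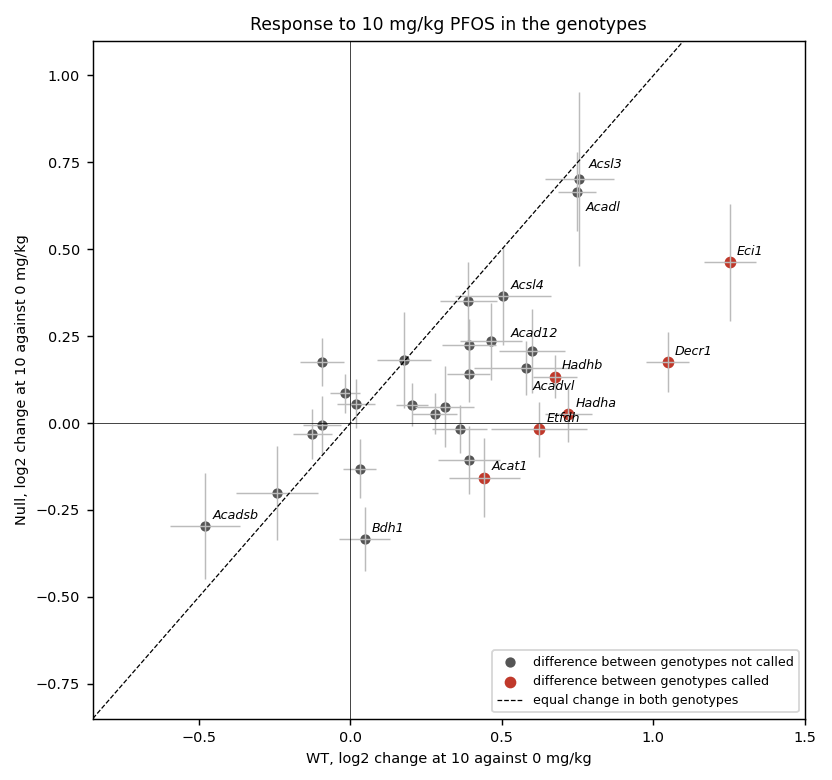
Log2 change at 10 against 0 mg/kg PFOS in WT mice (horizontal axis) and in Null mice (vertical axis) for the 30 genes, with bars of ± 1 SE. Red points are the 6 genes whose difference between genotypes was called, and the dashed line marks equal change. Acadl and Acsl3 lie near the line, and Eci1, Decr1, Hadha, Hadhb, Etfdh and Acat1 lie below it.

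Levels were also compared between genotypes at each dose. In controls, Acadvl, Acadl, Eci1 and Etfb were lower in Null mice and Bdh1 was higher, 4 and 1 of 30 genes against 0.683% and 0.897% of all genes. The differences were -0.59 ± 0.14, -0.72 ± 0.09, -0.79 ± 0.14, -0.33 ± 0.08 and 0.43 ± 0.09. Every Null control lay below every WT control in Acadl and Eci1, while in Acadvl, Etfb and Bdh1 the groups overlapped. At 3 mg/kg, 12 genes were lower and 1 higher in Null mice, against 5.09% and 5.88% of all genes, and at 10 mg/kg 15 were lower and 3 higher, against 7.83% and 6.32%. Eci1 showed the widest gap of the 30 genes at both doses (-1.66 ± 0.14 and -1.58 ± 0.14). Acadvl differed by -1.05 and -1.01, Etfdh by -1.05 and -0.98, and Decr1 by -0.76 and -1.10. The genes higher in Null mice at 10 mg/kg were Acsm1, Echs1 and Pccb, by 0.26, 0.16 and 0.22.

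Without WT control replicates 4 and 5, 7 genes were lower and 1 higher in Null controls, with Acads, Hadhb and Etfdh added, against 1.1% and 1.04% of all genes. Acadvl then differed by -0.95 ± 0.08 (adjusted p = 2.57e-08) and Etfdh by -0.66 ± 0.09 (adjusted p = 2.58e-05).

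The dose comparisons in WT mice were repeated in the same way. At 3 mg/kg 5 genes were again higher, 4 of them also called with all arrays, and 0.675% of all genes were higher and 0.23% lower. Acsl5 was added at 0.45 ± 0.09, and Hadha was not called (0.38, adjusted p = 0.0607). At 10 mg/kg 16 were higher and 3 lower, and 15 of the 19 genes called with all arrays were called again, while 13.8% of all genes were higher and 14.3% lower (3408 genes called in place of 1589). Acsl4 and Acad9 were added as higher and Acsm3 and Pccb as lower, and Acadvl, Acads, Acaa2 and Acat1 were not called. From 3 to 10 mg/kg 8 were higher and 2 lower, against 7.34% and 6.52% of all genes. The median change at 10 mg/kg was then 0.25.

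**Figure D4:**
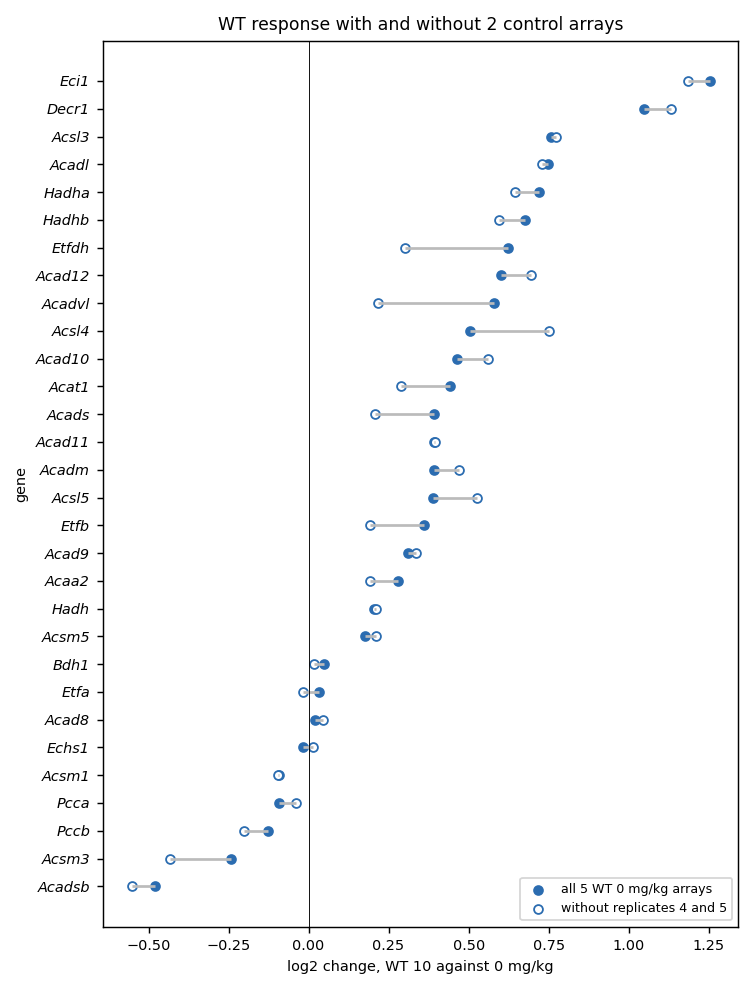
Log2 change of each gene in WT mice at 10 against 0 mg/kg PFOS (horizontal axis), with all 5 control arrays (filled) and without control replicates 4 and 5 (open), in order of the change with all arrays. The change shrinks from 0.58 to 0.22 in Acadvl and from 0.62 to 0.30 in Etfdh, grows from 0.50 to 0.75 in Acsl4, and in Eci1 is 1.25 and 1.19.

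The mean log2 value over the 30 genes rose with dose in WT mice. It lay between 10.87 and 11.08 in WT controls, 11.18 and 11.25 at 3 mg/kg, and 11.26 and 11.34 at 10 mg/kg, with no overlap between the WT groups. In Null mice it lay between 10.81 and 10.89, 10.82 and 10.99, and 10.90 and 11.05, with overlap at 3 mg/kg and none between 0 and 10 mg/kg.

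Neighbouring pathways were counted at 10 mg/kg, where 7.53% of all genes were higher and 5.54% lower in WT mice. In Null mice these shares were 4.14% and 4.96%. Of 5 measured genes of the carnitine shuttle, which carries fatty acids into the mitochondrion, 4 were higher in WT mice (median change 1.09) and 3 in Null mice (0.69). Slc22a5, the carnitine transporter of the plasma membrane, rose by 1.48 in WT and 1.21 in Null mice, and Slc25a20, the carnitine-acylcarnitine translocase, by 1.09 and 0.69. Of 12 other genes of mitochondrial fatty acid oxidation, 6 were higher in WT mice (median 0.45), and in Null mice 3 were higher and 1 lower (median 0.04). This list includes Ech1 and Eci2 (PECI in the paper), whose names in the paper call them peroxisomal. Both were among the genes higher in WT mice, and Eci2 was also higher in Null mice. Ech1, a dienoyl-CoA isomerase, rose by 1.31 in WT mice, and Acot2, a mitochondrial thioesterase, rose by 2.87 in WT and 0.60 in Null mice. Of 15 genes of peroxisomal β-oxidation, 10 were higher in WT mice (median 0.53), among them Ehhadh at 2.12 and Acot8 at 1.29, and 2 were higher and 1 lower in Null mice (median 0.19).

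Further lists were counted at the same dose, beside the same shares of all genes (7.53% higher and 5.54% lower in WT mice). Of 5 other genes of ketogenesis, 1 was higher in WT mice at 10 mg/kg, the monocarboxylate transporter Slc16a1 (0.47), and Bdh2 changed by -0.10 and was not called. Of 20 genes of the tricarboxylic acid cycle, 4 were higher and 1 lower (median 0.03), with Suclg1 and Dlst higher by 0.41 and 0.40. Of 16 genes of branched-chain amino acid and propionate breakdown, 3 were lower in WT mice (median 0.02), and Mmab, of cobalamin metabolism, rose by 0.64 in Null mice. Of 17 genes of general mitochondrial content, 1 was higher in WT mice (median 0.16), and in Null mice 1 was lower, cytochrome c (Cycs, -0.38). Of 15 regulators, 1 was called in WT mice, the coactivator Ppargc1a, lower by a log2 change of -1.01. The paper instead states that PFOS did not change Ppargc1a expression. It reports no rise on its arrays or by real-time PCR in separate mice. Without WT control replicates 4 and 5, the WT counts were 6 higher and 1 lower for the tricarboxylic acid cycle, 2 higher and 3 lower for branched-chain and propionate breakdown, and 8 higher for mitochondrial content (median 0.16). They were then 1 higher and 7 lower for the regulators and 1 higher and 1 lower for ketogenesis. Of all genes, 13.8% were then higher and 14.3% lower. The counts were 4 higher for the carnitine shuttle (median 0.86), 10 higher for peroxisomal β-oxidation, and 6 higher and 1 lower for the other genes of mitochondrial oxidation.

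Markers of liver cell types were read beside these changes at 10 mg/kg. The share of all genes that was lower was 5.54% in WT and 4.96% in Null mice, and 4.14% were higher in Null mice. Of 10 hepatocyte markers, 4 were lower in WT mice (Tat, Hnf4a, Cps1 and Ass1; median -0.17), with a summed log2 level of 127.2 to 128.1 against 129.7 to 130.6 in WT controls. In Null mice none of the 10 was called in limma, with 3 at an unadjusted p under 0.05. Of 12 Kupffer cell and macrophage markers, none was called in WT mice, with 3 at an unadjusted p under 0.05 (median -0.29, sums of 93.7 to 102.7 against 96.9 to 110.5) and 4 were lower in Null mice (median -0.39, sums of 97.6 to 104.6 against 102.9 to 108.7). Of 8 endothelial markers, 2 were higher in Null mice, and of 7 stellate cell markers, 1 was lower in WT mice. Of 4 lymphocyte and 3 cholangiocyte markers none was called in limma in either genotype, with 1 lymphocyte marker at an unadjusted p under 0.05. All hepatocyte and Kupffer cell markers were above the filter on weak signals. Without WT control replicates 4 and 5, 3 hepatocyte, 1 Kupffer cell, 4 endothelial and 3 stellate cell markers were lower in WT mice. The medians of these lists at 10 mg/kg were -0.23, -0.40, -0.28 and -0.44, while 14.3% of all genes were lower. The part of these markers in the changes of the oxidation genes was not tested.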

How the data were processed

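Liver RNA of 30 individual mice was profiled on Affymetrix mouse genome arrays. Labeling and hybridization were done together, and no batch is given to test. The authors used RMA (background adjustment, quantile normalization, summary of probes) and deposited log2 values of 45101 probe sets. The table held 0 columns of other samples. For arrays, their number limits the precision. Here, 64 control probe sets were dropped, and 24069 whose signal passed the overall median (5.65) on 5 or more arrays were kept. Probe sets were named through GEO's platform annotation where it lists 1 gene (34958, with 932 listing several and 9211 none). Each gene tested is represented in every comparison by 1 probe set, that of smallest F test p over the dose contrasts. Among the 30 measured genes, 11 had several kept probe sets, and values of further probe sets are given for only some of these genes. Limma 3.58.1 in R 4.3.3 was fitted to the 15 arrays of a genotype for dose, and to all 30 arrays for genotype, with Benjamini-Hochberg adjustment over all kept probe sets. The steps were tested on simulated data.

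Per-array values are given for the members with the smallest F test p in each role, those called lower, and others whose values turn on single arrays, chosen after their values were seen. Of each neighbouring pathway, the genes with the smallest p are named. The members and lists were chosen with earlier results of these data known. Alternatives were no filter, a stricter filter, the probe set of highest mean, arrays shifted to the same median, limma with trend and robust spread, a different choice of arrays per fit, a replicate block, the methods' t-test (unadjusted p of at most 0.0025), a fold of at least 1.5, and each array left out. Leaving out WT 0 mg/kg replicates 4 and 5 was added after seeing the data. Promoter windows are RefSeq sequence of GRCm38.p6. Plots used Python 3.11.15 with matplotlib 3.10.9. Real-time PCR and histology were not analysed here.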

Additional observations from a re-analysis of the deposited data

Results flagged for a closer look

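In 20 of 180 gene and group combinations (11.1%) 1 array lay far from the other 4 of its group by Dixon's criterion, which chance alone meets in about 5% of groups. Null 3 mg/kg replicate 4 was such an array for Acsl3 (log2 value 8.16, high) and for Acsm5 (10.1), Acadm (12.8), Acad10 (9.19) and Etfa (12.4), all low. Null 10 mg/kg replicate 1 was low for Acsm3 (9.19) and Acadsb (9.82) and high for Hadha (11.8). WT 3 mg/kg replicate 2 was high for Acads (11.4) and Pccb (11.1) and low for Decr1 (12.1). Null 3 mg/kg replicate 1 was low for Acad8 (9.51) and Acad12 (6.66), and Null 0 mg/kg replicate 4 was high for Decr1 (11.5) and Etfb (12.4). The others were Acsl5 in WT 10 mg/kg replicate 3 (12.6, high), Acad9 in WT 10 mg/kg replicate 2 (8.53, high), Acsm1 in Null 0 mg/kg replicate 2 (12.2, low), Acsm5 in WT 0 mg/kg replicate 3 (10.3, low) and Acadl in WT 0 mg/kg replicate 2 (11.9, high).

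The response to PFOS differed between genotypes by a direct test in limma, as Null minus WT change. At 3 mg/kg it did so for Hadhb (-0.444), Eci1 (-0.868) and Decr1 (-0.536). At 10 mg/kg it did so for Hadha (-0.693), Hadhb (-0.541), Eci1 (-0.79), Decr1 (-0.871), Etfdh (-0.641) and Acat1 (-0.599).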

How the results depend on the processing

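No called change of a gene turned its direction in any alternative run, while some changes near 0 that were not called did. Numbers of the 30 genes called are given where they moved by over 1.5 times, beside those with all arrays (WT 3, 10 and 10 against 3 mg/kg: 5, 19 and 6; Null 3 and 10 mg/kg: 1 and 2; differences in response at 3 and 10 mg/kg: 3 and 6; genotypes at 0, 3 and 10 mg/kg: 5, 13 and 18). Without a filter they were 3 for WT 10 against 3 mg/kg and 1 for Null 10 mg/kg. With arrays shifted to the same median, Null 3 mg/kg gave 0. Limma with trend and robust spread gave 5 for the difference at 3 mg/kg. With all 30 arrays in the fit, Null 3 and 10 mg/kg gave 2 and 5, and with the 2 groups compared alone, genotypes at 0 mg/kg gave 3. The methods' t-test gave 9 for WT 3 mg/kg, 0 and 1 for Null 3 and 10 mg/kg, and 8 for the difference at 3 mg/kg. A fold of at least 1.5 left 2, 8 and 1 in the WT comparisons, 0 and 1 in Null mice, 1 for the difference at 3 mg/kg, and 3, 8 and 10 between genotypes. Without WT 0 mg/kg replicates 4 and 5, WT 10 against 3 mg/kg gave 10, the differences 1 and 3, and genotypes at 0 mg/kg 8. Over all genes, WT 3 and 10 mg/kg then gave 110 and 3408 in place of 30 and 1589. The cause was not tested.

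With each array left out in turn, the numbers ranged from 3 to 7, 13 to 21 and 2 to 8 in the WT comparisons, 0 to 3 and 1 to 4 in Null mice, 0 to 7 and 3 to 10 for the differences, and 2 to 6, 10 to 14 and 14 to 19 between genotypes. The highest values for WT 3 mg/kg (7) and both differences (7 and 10) came without WT 0 mg/kg replicate 2, and 3 for WT 3 mg/kg came without WT 0 mg/kg replicate 4 or WT 3 mg/kg replicate 3. Null 3 mg/kg gave 3 without Null 10 mg/kg replicate 1.

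The labels give the replicate numbers as biological replicates of a group and state no pairing between groups. Deviations of same-numbered arrays correlated between -0.24 and 0.36 over 75 pairs, and 11 of 30 arrays correlated best with their own number. That count was not tested against chance. With the replicate block the difference at 3 mg/kg gave 5, and the other counts stayed within 1.5 times.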
